A study of Mus musculus with 6 samples.

Results

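Hedgehog signalling is a main route by which a secreted protein patterns the embryo. Without a ligand the receptor Patched keeps the membrane protein Smoothened inactive, and the GLI transcription factors are held back or processed into repressors. Binding of Sonic, Indian or Desert hedgehog lifts that block at the primary cilium, and active GLI proteins turn on targets that include Gli1, Ptch1 and Hhip themselves, so the transcripts of these genes are widely used as readouts of the pathway. The genes described are the 3 ligands (Shh, Ihh, Dhh), the receptor Ptch1 and the transducer Smo, the effectors Gli1, Gli2 and Gli3, and the ligand-binding inhibitor Hhip. They were chosen by name, and all 9 were found among the 25043 genes to which the transcripts of the RNA-Seq table belong. Each is represented by its RefSeq transcript with the highest mean.

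The study compared primary mouse embryonic fibroblasts (MEFs) that were wild type (WT) with MEFs null for Anp32e, the gene of a chaperone that removes the histone variant H2A.Z from chromatin. Both kinds of cell came from embryos, were donated by another laboratory, grew in DMEM with 10% FBS and were used at passages under 8. RNA-Seq was run on 3 WT and 3 Anp32e null libraries of total RNA. The value used for each transcript is the authors' mean normalized count over all 6 libraries, with both genotypes pooled, so it has no error and says nothing on the difference between WT and Anp32e null cells, which was not tested. To set genes beside each other, that mean was divided by the exon length in kb of the GENCODE transcript paired with the RefSeq one. Over the 17323 genes with reads and a known length, the median was 131 counts per kb.

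The labelled cell type was checked against markers. Over all genes of the table, 56.9% had a mean of at least 10, so a marker count near that share says little about a cell type. Of 11 fibroblast genes, 10 had a mean of at least 10, with the intermediate filament gene Vim at 150796 counts per kb, Col1a1 at 4408 and Thy1 at 2976. Pdgfra, at 91.9, and Dcn, at 81.8, lay below the median gene at 131 counts per kb, and Lum, a small proteoglycan gene, was at 0.544. The other fibroblast genes lay above that median. Some markers of other cells were also present. All 6 mesothelial markers reached a mean of 10, with Krt19 at 4696 counts per kb and Upk3b at 171. Of 6 epithelial markers 4 did, with Krt18 at 769 counts per kb, while the defining gene Epcam, at 2.51, did not. Of 5 endothelial genes 2 did, with Kdr at 499 counts per kb and Tek at 8.25, and the defining genes Cdh5 and Pecam1 were at 0.886 and 1.30. Among the 5 macrophage genes only Csf1r, at 10.4 counts per kb, passed a mean of 10, and the defining Adgre1 was at 0.0570. Of 5 skeletal muscle genes 2 did, with Acta1 at 3258 counts per kb, while Myod1 had 0 reads and Myog was at 0.394. For neural crest and glia 1 of 5 genes reached a mean of 10, S100b at 17.9 counts per kb, and Foxd3 had 0 reads. In such bulk samples fewer cells of a kind and less RNA per cell cannot be told apart, and the part of other cells in any level below was not tested.

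The targeted gene, Anp32e, had an authors' mean of 2190 normalized counts, or 1586 counts per kb. Because the mean pools both genotypes, the knockout could not be checked in each library.

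Across the pathway, Smo and Gli3 had the highest levels of the 9 genes and the ligands were among the lowest. Levels per kb fell from Smo through Gli3, Ptch1, Gli2, Hhip, Dhh and Gli1 to Ihh, and Shh had 0 reads. Of the 9 genes, 8 had reads, against 19275 of all 25043 genes. A mean of at least 10 was reached by 7, or 77.8%, against 56.9% of all genes. Per kb, 2 of the 9, Smo and Gli3, lay above the median gene. The place of the middle genes depended on the scale: among genes with a mean of at least 10 Gli3 was at percentile 41.9 and Smo alone was above the median, and without division by length Ptch1 was above it too, at percentile 58.5. The median of the 8 genes with reads was 26.8 counts per kb, against 131 over all genes.

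**Figure D1:**
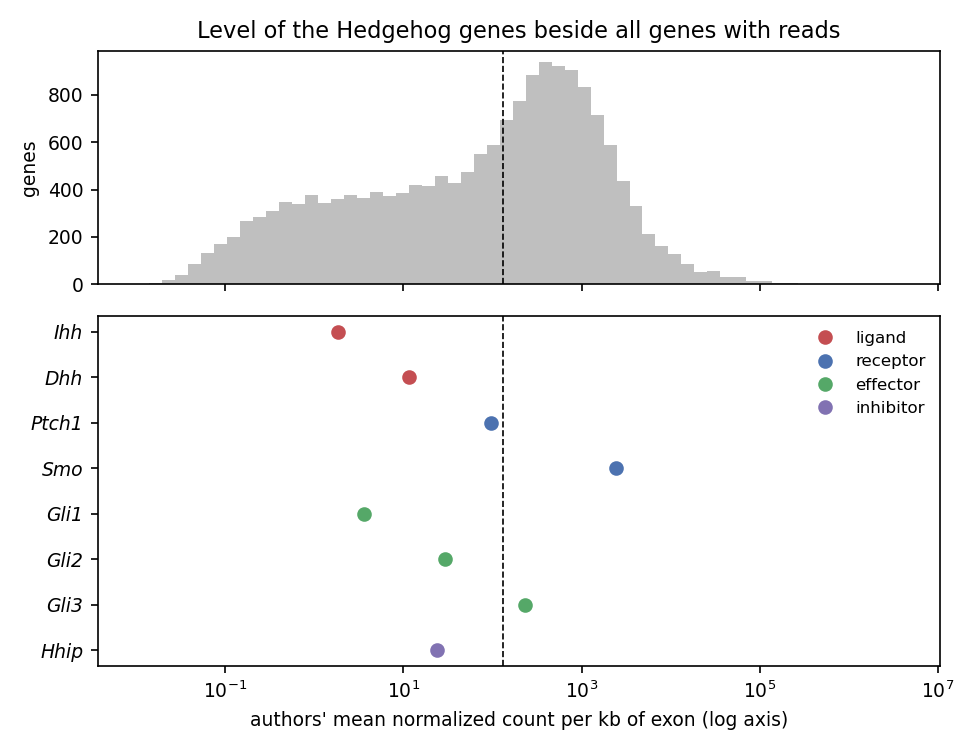
Upper panel, number of genes (vertical axis) by the authors' mean normalized count per kb of exon (log axis) for the 17323 genes with reads and a length; lower panel, the same quantity for the 8 Hedgehog genes with reads, 1 point per gene coloured by role, with the median of all genes as a dashed line. Smo, at 2448 counts per kb, and Gli3, at 231, lie right of the line, and Shh, with 0 reads, is not drawn.

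The ligands are secreted proteins that carry a cholesterol and a palmitate group and act on nearby cells. Shh, which patterns the neural tube and limb, lies on chromosome 5 at 28456815 to 28467256 and had 0 reads in all 6 libraries. A count of 0 allows up to 3 reads over the libraries (one-sided 95% confidence, counting error only), which corresponds to a mean of at most 0.550 and a level of at most 0.193 counts per kb. Genes of the notochord and floor plate, the embryonic structures that make Shh, reached a mean of 10 in 2 of 4 cases. Over all genes 56.9% did, so this count says little about those cells. Ntn1 was at 67.7 and Foxa2 at 85.5 counts per kb, but Foxa1 was at 0.677 and Noto at 0.198.

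Ihh, the ligand of the growth plate, was low, with an authors' mean of 4.54 and a level of 1.84 counts per kb, at percentile 18 of the genes with reads. Because the table writes each mean with 15 significant digits, the whole reads behind a low mean could be solved for the 6 libraries, which are named A to F in order of falling size factor (the number by which DESeq2 divides a library's counts), from 1.13 to 0.909. No label ties a size factor to a sample, so the genotype of A to F is not known. Ihh had 7, 0, 3, 3, 10 and 4 reads in libraries A to F, 27 in all. The normalized counts ran from 0 in library B to 10.7 in library E with a median of 3.72, and the Poisson intervals (two-sided 95%, counting error only) of these libraries, 0 to 3.51 and 5.13 to 19.7, did not overlap. Libraries B and E were picked as the extremes, so no conclusion on a difference between them is drawn. The other Ihh transcript in the table had 18 reads in all, with 4, 0, 2, 4, 8 and 0 in libraries A to F. Genes of cartilage, where Ihh is best known, reached a mean of 10 in 4 of 5 cases, against 56.9% of all genes. Col2a1 was at 113 and Sox9 at 56.4 counts per kb, while Col9a1 had 0 reads.

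Dhh, the ligand of Sertoli and Schwann cells, was the most abundant of the ligands, at 11.6 counts per kb, which is 6.28-fold above Ihh and at percentile 29.9. Its authors' mean of 49.0 resolved into 88, 78, 37, 60, 27 and 15 reads in libraries A to F. The normalized counts were 77.8, 74.2 and 60.8 in libraries A, B and D. They were 36.0, 28.9 and 16.5 in libraries C, E and F, with a median of 48.4 over all 6. The intervals of libraries F and A, 9.24 to 27.2 and 62.4 to 95.9, were far apart. Those libraries are the extremes and the intervals cover counting error only, so no conclusion on the spread between cultures is drawn. The Dhh transcript shares 546 exon bases, 12.9% of its exons, with Rhebl1 on the same strand, a gene with an authors' mean of 246, and 1107 bases with an antisense gene. The methods name default settings for featureCounts and DESeq2 together and spell out neither the strand nor the treatment of shared bases, so some reads listed for Dhh may come from its neighbours. Sox10, a transcription factor gene of the Schwann cell lineage, had 1, 1, 10, 14, 20 and 2 reads.

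**Figure D2:**
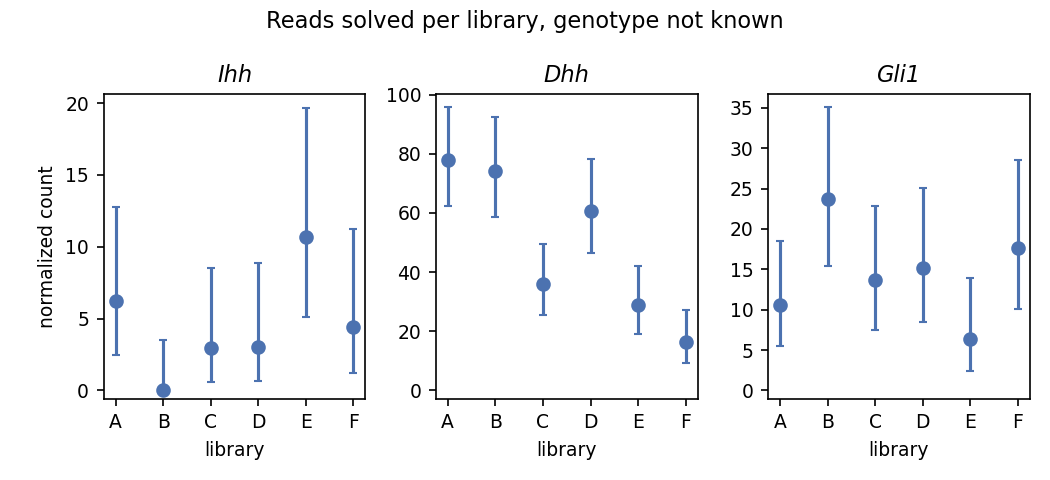
Normalized counts (reads solved from the mean, divided by the size factor) in libraries A to F for Ihh, Dhh and Gli1, 1 point per library on linear axes of different scale; bars are two-sided 95% Poisson intervals that cover counting error only. Dhh spans 16.5 to 77.8, Gli1 6.41 to 23.8 and Ihh 0 to 10.7.

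The receptor side of the pathway was far better represented than the ligands. Smo, the membrane protein that passes the signal inward, was the most abundant of the 9 genes, with an authors' mean of 9249 and 2448 counts per kb, at percentile 90.9. Ptch1, which binds the ligand and represses Smo, had a mean of 754 and 97.5 counts per kb, at percentile 46.8, 25.1-fold below Smo. Both stood above every ligand on this scale.

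Ptch1 is listed as 2 transcripts, whose means were 754 and 744. The difference, 9.73, resolved into 18, 10, 5, 16, 8 and 3 reads in libraries A to F, 60 in all, if every read of the lower transcript also counts for the higher, which was not tested. The difference is 1.29% of the higher mean. It is a net value, in which reads held by the lower transcript alone would cancel, so the share of each isoform cannot be read from it.

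The start of Ptch1 lies in sequence dense in CpG, the dinucleotide at which mammalian DNA is methylated. RefSeq promoters (GRCm38.p6), which run from 250 bases before to 50 after a gene's start, were given for 7 of the 9 genes. They held a median of 7 CpG over 32851 promoters, and each of the 7 Hedgehog promoters held more. Dhh was at percentile 61.2 of all promoters and Smo at 69.4, not far above the median, and the others were at 86.4 to 98.7. The promoters with the most and the fewest CpG among the 7 are shown, both on the minus strand and written 5′ to 3′ with each CpG in capitals. That of Ptch1, chr13:63565686-63565985, holds 47 CpG (percentile 98.7 of all promoters) and is 76.3% G or C, and that of Dhh, chr15:98898491-98898790, holds 12 CpG and is 61.7% G or C.
Ptch1: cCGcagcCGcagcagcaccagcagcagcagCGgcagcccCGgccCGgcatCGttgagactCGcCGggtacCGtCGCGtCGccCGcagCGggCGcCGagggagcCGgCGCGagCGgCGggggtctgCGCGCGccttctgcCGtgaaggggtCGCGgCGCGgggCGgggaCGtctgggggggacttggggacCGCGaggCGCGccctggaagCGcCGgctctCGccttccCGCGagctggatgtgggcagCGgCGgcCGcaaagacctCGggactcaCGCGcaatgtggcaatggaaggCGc
Dhh: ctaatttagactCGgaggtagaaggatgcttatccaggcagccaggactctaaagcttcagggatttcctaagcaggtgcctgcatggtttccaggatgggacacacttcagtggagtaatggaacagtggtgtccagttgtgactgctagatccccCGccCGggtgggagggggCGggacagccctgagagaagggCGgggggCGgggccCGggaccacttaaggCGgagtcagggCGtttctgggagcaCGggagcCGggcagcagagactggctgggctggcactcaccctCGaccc
Between them, Smo had 17 CpG, Gli2 28, Ihh and Hhip 30 each, and Gli3 39. Abundance did not follow this order, since Smo, the gene with the highest level, had fewer CpG than all but Dhh, and Ihh, the lowest with reads, had as many as Hhip. For Smo and Gli3, however, the GENCODE transcript used for the length starts 197 and 257 bases downstream of the start used here. Their windows thus lie wholly before the GENCODE start, and the CpG around that start were not counted. The 9-base GLI motif GACCACCCA (TGGGTGGTC on the other strand) was in 0 of the 7 promoters, exactly or with 1 mismatch, and in 0.253% of all promoters exactly and 6.74% with at most 1 mismatch. That says only that these letters are not in these windows.

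**Figure D3:**
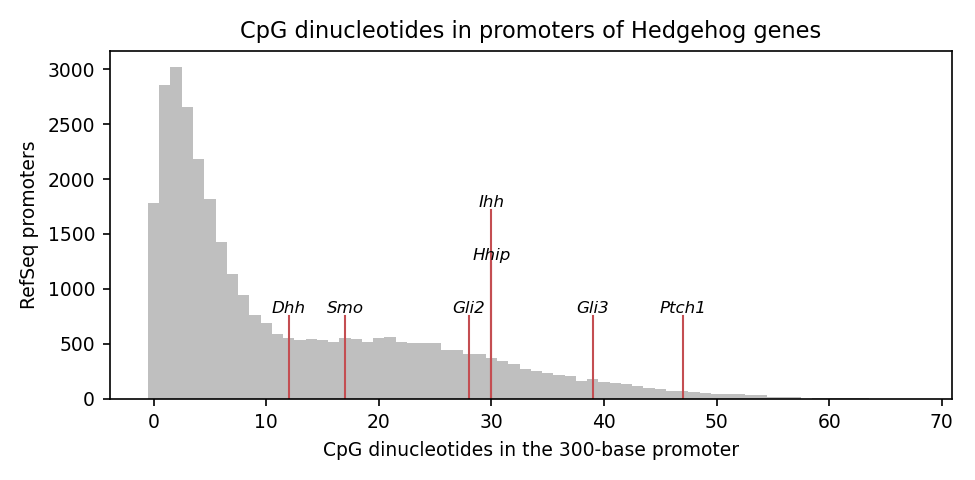
Number of RefSeq promoters of 300 bases (vertical axis) by the number of CpG dinucleotides they hold (horizontal axis), with red lines at the 7 Hedgehog genes that have a promoter in the table; the height of a line has no meaning. The genes run from 12 CpG in Dhh to 47 in Ptch1, against a median of 7 over all promoters.

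The GLI factors are the zinc finger proteins at the end of the pathway, and their levels differed widely. Gli3, which acts mainly as a repressor when ligand is absent, was the most abundant, with an authors' mean of 1886 and 231 counts per kb, at percentile 57.3. Gli2, the main activator, was at 29.4 counts per kb and percentile 36.8, 7.86-fold below Gli3. Gli1, which is itself a target of the pathway, was at 3.58 counts per kb and percentile 22.2, 64.4-fold below Gli3 and 8.20-fold below Gli2.

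Gli1 was low in each library. Its authors' mean of 14.5 resolved into 12, 25, 14, 15, 6 and 16 reads in libraries A to F. The normalized counts ran from 6.41 in library E to 23.8 in library B with a median of 14.4, and the intervals of those libraries, 2.35 to 14.0 and 15.4 to 35.1, did not overlap. The other libraries had intervals that overlapped both. Libraries E and B were again picked as the extremes, so no conclusion on a difference between them is drawn. The Gli1 transcript shares 265 exon bases, 6.53% of its exons, with an antisense gene and 62 with Arhgap9 on the opposite strand. The library kit keeps the strand of the RNA, whereas default featureCounts counting does not use it, and if that default was kept a part of its few reads may belong to those genes. For Gli2 and Gli3, as for Ptch1, Smo and Hhip, the means of 195 and above are too large for the reads of each library to be solved.

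Hhip, a membrane protein that binds ligand and so limits its spread, is induced by the pathway. It had an authors' mean of 219 and 24.2 counts per kb, at percentile 35.2. That was 4.04-fold below Ptch1, another gene of negative feedback, and 1.22-fold below Gli2. Its transcript is the longest of the 9, with 9074 exon bases, and without division by length Hhip stood above Gli2, so the order of these neighbours depends on the scale.

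Among the 9 genes, 2 pairs lie on the same chromosome. Ihh (74945315 to 74951672) and Gli2 (118834132 to 119053619) are on chromosome 1, both on the minus strand. Gli3 (15463980 to 15730026, plus strand) and Ptch1 (63508328 to 63565735, minus strand) are on chromosome 13 (GRCm38, GENCODE transcripts). Dhh lies on chromosome 15, Gli1 on 10, Smo on 6 and Hhip on 8.

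Other genes of the pathway were mostly well represented. Of 68 such genes in 5 lists, 68 had reads and 61, or 89.7%, had a mean of at least 10, against the 56.9% of all genes. For the 61 genes whose transcript has a known length, the median level was 254 counts per kb, against 131 over all genes, and the medians and extremes of each list below cover such genes.

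Genes that process and release the ligands were present even where the ligands were low. Of 12, 9 had a mean of at least 10 and the median was 218 counts per kb. The highest were Ext1, which builds the heparan sulphate chains that ligands travel along, at 1548 counts per kb, the sheddase gene Adam17 at 448 and the glypican gene Gpc3 at 365. The lowest were Disp2 at 0.319 and the secreted release factor gene Scube1 at 0.174 counts per kb. Their reads numbered 12 and 4 over the 6 libraries. Disp1, which exports the ligands from the cells that make them, was at 271.

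Co-receptors present the ligand to Patched. Gas1 was at 1144, Boc at 191 and Cdon at 128 counts per kb, and all 3 were thus above Ptch1 on this scale. The length used for Gas1 was 1155 bases, while the gene runs from 60174405 to 60177535 on chromosome 13. Its level may therefore be overstated. The endocytic receptor gene Lrp2 was at 3.74.

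The primary cilium is the place where Smoothened and the GLI proteins meet. All 16 genes of cilium structure and trafficking reached a mean of 10, and their median was 311 counts per kb. The highest were the phosphatase gene Inpp5e at 734, the receptor gene Gpr161 at 643 and Tulp3, whose product brings Gpr161 into the cilium, at 623. The lowest were Efcab7 at 49.6 and the dynein gene Dync2h1 at 38.7. Kif7, the kinesin that organises GLI proteins at the tip of the cilium, was at 103.

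All 17 intracellular regulators, which control the processing and the activity of GLI proteins, reached a mean of 10 as well, and the median of the 13 with a length was the highest of the 5 lists at 765 counts per kb. Protein kinase A, which marks GLI proteins for processing, was represented by its catalytic subunit gene Prkaca at 4767 and its regulatory subunit gene Prkar1a at 3447 counts per kb. Grk2, a kinase of Smoothened, was at 2862. The lowest were the arrestin gene Arrb1 at 66.1 and the kinase gene Stk36 at 33.0. Sufu, the main inhibitor that binds GLI proteins, was at 254.

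**Figure D4:**
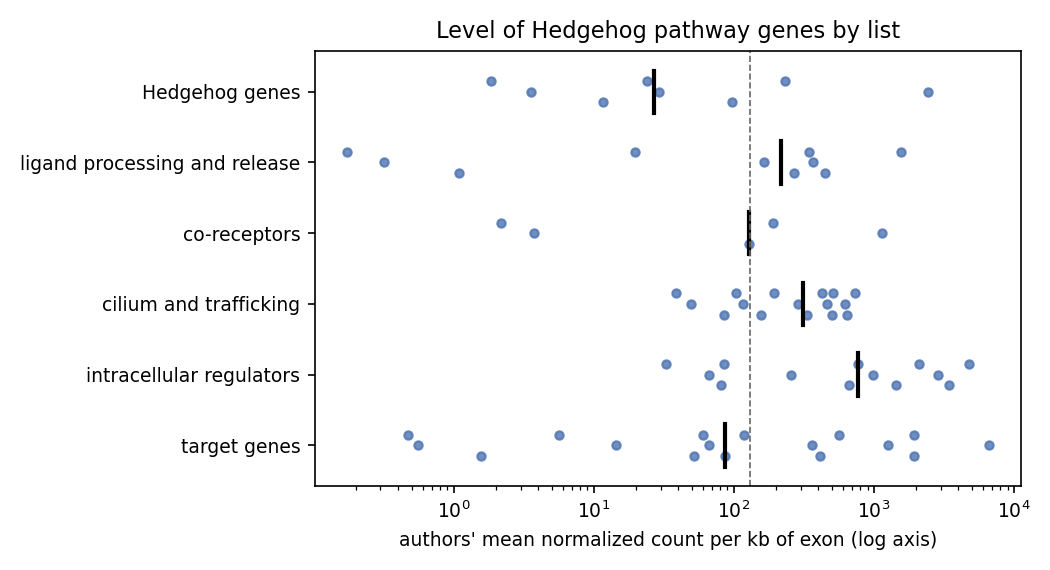
The authors' mean normalized count per kb of exon (log axis), 1 point per gene with reads and a length, for the Hedgehog genes and 5 lists of other pathway genes; bars are list medians, the dashed line is the median of all genes, and the vertical shift of points has no meaning. List medians run from 26.8 for the Hedgehog genes to 765 for the intracellular regulators.

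Known targets of GLI proteins covered the widest range. Of 18, 15 had a mean of at least 10, with a median of 87.0 counts per kb. The cell cycle genes Ccnd1, Ccnd2 and Ccne1, which many other signals also drive, were at 6656, 1935 and 1916. The neural tube genes Nkx2-2 and Nkx6-1 were at 0.560 and 0.474 counts per kb. Nkx2-2 had 4 reads, all in library A, and Nkx6-1 had 3, 0, 1, 2, 1 and 2 in libraries A to F.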

How the data were processed

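RNA-Seq was measured in 3 WT and 3 Anp32e null MEF libraries. Per the study's methods and the submitters' processing notes, reads were aligned to mm10 with STAR, counted with Subread featureCounts and analysed with DESeq2. The authors name default settings for featureCounts and DESeq2. The deposited table holds 42361 RefSeq transcripts. The signal used is the authors' mean over 6 libraries of counts divided by DESeq2 size factors. The other columns hold the authors' own comparison of the genotypes (fold changes, their errors and p-values) and were not used. Counts per library had been planned for, but the table holds this pooled mean, so no genotypes were compared.

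RefSeq names (GRCm38.p6) matched 42203 transcripts. Exon lengths came from the GENCODE M21 transcript paired with each RefSeq transcript, the shortest where several were paired, and covered 89.9% of genes with reads. Where the paired transcript is shorter than the counted one, the level per kb is overstated. Size factors were taken from the lowest means, each 1 read in 1 library. For means up to 50, sets of 6 whole counts were searched that give the mean within 0.5 units of its last digit, and a transcript was solved where exactly 1 set did. Of 2553 distinct means under 5, 100% were solved. The search was tested on simulated data. Total depth per library is not given. Intervals cover counting error only.

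Genes named are the 9 members, Anp32e, and the 3 highest and 2 lowest per kb of each list; Disp1, Kif7, Sufu and the markers named were picked after their values were seen. Some genes of the lists are not reported here. The members and lists were chosen with earlier results of these data known. Python 3.11.15, numpy 2.4.6, pandas 2.3.3, scipy 1.17.1 and matplotlib 3.10.9 were used.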

Additional observations from a re-analysis of the deposited data

How the results depend on the processing

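The number of Hedgehog genes above the median gene, 2, was 1 among genes with a mean of at least 10, where Smo alone was above; that set leaves out the low genes. It was 3 without division by length, and 2 among autosomal genes, with 200 bases less length, over distinct transcripts and with the lowest transcript. Pathway genes reached, 61, were 66 at a minimum of 1 and 59 at 50. Reads were solved for 4 of the 9 genes, Shh at 0 included, also at a tolerance 10 times wider. Of the levels per kb, Ptch1 moved past its counting interval with either other transcript rule, and Smo and Gli3 with the shorter length; the order from Smo to Ihh did not change except that Hhip passed Gli2 without division by length. The percentiles of 7 of 8 genes moved by over 5 points among genes with a mean of at least 10, all but Smo, and those of 6 without division by length. Leave-one-out means ran from 43.3 to 55.5 for Dhh, 12.7 to 16.2 for Gli1 and 3.31 to 5.45 for Ihh. The other Ihh transcript has no paired length and gave no level. Motif matches were 0 with at most 1 mismatch too. No paired analysis was possible because no value can be tied to a sample or its replicate number. Pooled means carry no error, so differences in level between genes have none either, and at the depth of Ihh or Gli1 a difference of a few reads between libraries was not detectable.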

Other observations

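The reads of several developmental genes outside the 9 differed widely between the libraries. Mycn, a target gene that drives proliferation, had 4, 1, 33, 2, 31 and 17 reads in libraries A to F. Pax1, a gene of the sclerotome, had 0, 0, 4, 0, 3 and 16. Tie1, an endothelial receptor gene, had 0, 0, 6, 0, 5 and 5. Its reads were few, and the counting intervals of its lowest and highest library, 0 to 3.69 and 2.20 to 13.1 reads, overlapped. Acan, the gene of the cartilage proteoglycan aggrecan, had 31, 31, 0, 21, 1 and 5. In each of these genes, libraries A, B and D all lay above or all lay below C, E and F, as for Dhh. This division was not particular to them. The markers Csf1r, S100b, Foxa1, Ptprc and Krt14, some with few reads, divided in the same way. Ihh, Gli1, Osr2, Sox10 and Tek did not. The share of all solved transcripts that divide so was not counted, so no weight can be given to the division. Mycn, Pax1, Tie1 and Acan were picked after their values were seen. No label ties a library to a genotype, so what this division follows is not known.

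Osr2, a target gene of the limb and palate, was more even across the libraries, with 45, 50, 38, 30, 40 and 59 reads in A to F.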
